A study of Mus musculus with 17 samples.

Results

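The interferon-inducible GTPases of the mouse forestomach were followed here through 10 genes of 2 families, the immunity-related GTPases (IRG) Tgtp1, Tgtp2, Iigp1, Irgm1, Irgm2 and Igtp and the guanylate-binding proteins (GBP) Gbp2, Gbp3, Gbp6 and Gbp7. A probe was taken as a member when its RefSeq transcript belonged to 1 of these genes, which gave all 10 genes, of 20018 named on the array, through 14 of its 55681 probes. Of these, 12 probes of 9 genes passed the filter on dim signals, among 27577 probes that did. The probe of Tgtp1 and probe 2 of Tgtp2 did not pass. The rule itself used no measured value, but the genes were chosen with earlier results of these data known. Shares of members set beside shares of all probes are therefore descriptions and not independent support.

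Interferons bind receptors that act through Janus kinases and STAT transcription factors, and these GTPases are among the genes most strongly induced by interferon gamma in mouse cells. IRG and GBP proteins are known for coating and breaking open the vacuoles in which intracellular pathogens live, and GBPs also help to expose bacterial products to the inflammasome. Irgm1, Irgm2 and Igtp are regulators that sit on the cell's own membranes and hold the effectors Iigp1 and Tgtp in an inactive state. Both families can be induced in epithelial cells as well as in macrophages and lymphocytes.

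The study asked how the forestomach, the squamous part of the rodent stomach, responds to repeated oral benzo(a)pyrene (BaP), a polycyclic aromatic hydrocarbon. All animals were male MutaTMMouse, a transgenic strain that carries a lacZ reporter for mutation assays, were 24 to 26 weeks old, lived 1 to a cage, and were gavaged on each of 28 days. The 5 controls (replicates 1 to 5) received olive oil without BaP, and 4 animals each received BaP in olive oil at 25 mg/kg (replicates 6 to 9), 50 mg/kg (replicates 12 to 15) or 75 mg/kg body weight per day (replicates 17 to 20). Forestomach was taken 72 hours after the last dose, and 1 array per animal carried its RNA in Cy5 against a common Cy3 reference made from 11 mouse cell lines. Values below are log2 ratios of Cy5 over Cy3, so that a ratio can be compared between animals for 1 probe but not between probes.

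In Cy5, an array had 39.9% to 50.7% of its probes well above background, the scanner's own mark for a spot that stands clear of its surroundings. The 7 markers of squamous epithelium measured, Krt5 and Krt14 among them, were well above background on each of the 17 arrays, and their mean log2 ratio lay between 4.06 and 4.78. Control 2 stood apart in immune markers: its mean log2 ratio over 3 B cell markers was 1.33 against -3.76 to -2.43 in the other controls, and over 6 T and NK cell markers it was 1.18 against -0.54 to 0.01. Replicate 7, at 25 mg/kg, had the highest mean ratio of 5 glandular stomach markers, 5.43 against 0.3 to 3.58 on the other arrays. The members' count at 75 mg/kg and the medians of the immune marker lists are also given without control 2.

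To show what the members have in common in sequence, the bases upstream of their transcript starts were read from the RefSeq promoter table (GRCm38.p6), which held 9 windows for 8 of the 10 genes, Gbp3 having 2 annotated starts. The core of the interferon-stimulated response element (ISRE), a site known from interferon-induced genes, was searched as GAAANNGAAA, and the gamma-activated site (GAS), known from genes induced by interferon gamma, as TTCNNNGAA, on both strands. The windows ran from 250 bases before to 50 bases after the start. Below, each sequence is the 110 bases before the start, 5′ to 3′ on the gene's strand, with matches to either motif in capitals. The first 4 genes, all of the IRG family, hold a GAS and an ISRE core 2 bases apart. They lie on the minus strand at chr11:48992247-48992356 (Tgtp1) and chr11:49064213-49064322 (Tgtp2) and on the plus strand at chr11:58199446-58199555 (Igtp) and chr11:58214867-58214976 (Irgm2).
Tgtp1: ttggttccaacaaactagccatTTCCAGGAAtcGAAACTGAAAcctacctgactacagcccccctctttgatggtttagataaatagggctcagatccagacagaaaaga
Tgtp2: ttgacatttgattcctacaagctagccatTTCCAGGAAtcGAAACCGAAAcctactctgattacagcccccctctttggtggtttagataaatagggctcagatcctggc
Igtp: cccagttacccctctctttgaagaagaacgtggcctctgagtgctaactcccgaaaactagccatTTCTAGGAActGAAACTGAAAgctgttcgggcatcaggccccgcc
Irgm2: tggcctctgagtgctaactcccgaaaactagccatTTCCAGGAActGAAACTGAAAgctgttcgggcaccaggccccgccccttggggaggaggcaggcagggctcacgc
The other 4 genes show the ISRE core without that spacing. They lie at chr11:48871421-48871530 on the minus strand (Irgm1) and, on the plus strand, at chr3:142620553-142620662 (Gbp2), chr3:142559934-142560043 (Gbp3, start 1) and chr3:142530226-142530335 (Gbp7).
Irgm1: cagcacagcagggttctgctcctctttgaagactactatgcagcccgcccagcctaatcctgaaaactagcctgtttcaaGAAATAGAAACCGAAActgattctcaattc
Gbp2: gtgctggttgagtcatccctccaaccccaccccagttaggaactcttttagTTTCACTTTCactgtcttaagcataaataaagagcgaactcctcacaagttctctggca
Gbp3: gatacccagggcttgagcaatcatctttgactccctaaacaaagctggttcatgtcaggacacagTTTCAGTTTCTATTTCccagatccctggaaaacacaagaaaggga
Gbp7: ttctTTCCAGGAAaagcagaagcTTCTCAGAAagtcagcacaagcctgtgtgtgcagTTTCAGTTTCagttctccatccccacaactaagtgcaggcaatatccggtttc

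The ISRE core was present in 8 of the 9 windows and for 8 of the 8 genes read, against 3.44% of all 32851 windows in the table. Its matches began 24 to 77 bases before the start, and in Irgm1 and Gbp3 a pair of matches overlapped by 4 bases. The window of the other Gbp3 start held neither motif. The GAS was present in 5 windows, those of Tgtp1, Tgtp2, Igtp, Irgm2 and Gbp7, against 8.3% of all windows. The joint pattern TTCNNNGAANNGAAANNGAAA, searched after the sequences had been seen, was found in 5 of 32851 windows (0.0152%), those of Tgtp1, Tgtp2, Igtp and Irgm2 and of Gm12185, whose probe no array showed well above background. The longest run of identical bases shared by the Tgtp1 and Tgtp2 windows was 27 bases. The Igtp and Irgm2 windows also shared long identical stretches, on both sides of the joint pattern. Windows of such related genes are not separate draws, so the counts set beside shares of all windows are descriptions only. A match describes letters in a window and is not evidence that a factor was bound there in these animals.

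**Figure D1:**
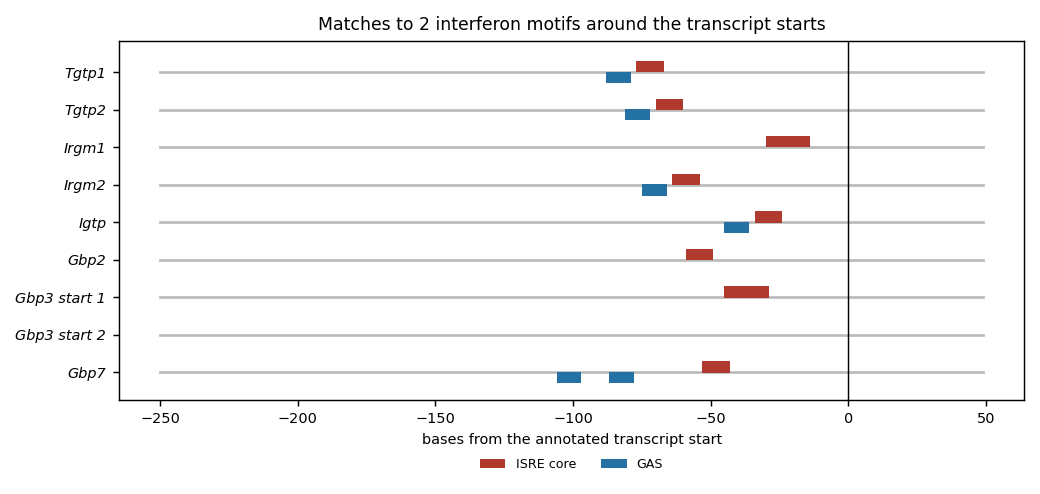
Positions of ISRE core (red, GAAANNGAAA) and GAS (blue, TTCNNNGAA) matches on either strand in 9 promoter windows of 8 member genes; the horizontal axis gives bases from the annotated transcript start, which is the vertical line at 0. In 8 windows an ISRE core lies within 77 bases of the start, and in Tgtp1, Tgtp2, Igtp and Irgm2 a GAS sits just upstream of it.

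At 75 mg/kg, 6 of the 9 genes tested were higher than in controls. Tgtp2, Iigp1, Irgm1, Igtp, Gbp3 and Gbp7 rose, by 2.54 for Tgtp2 and 2.18 for Igtp down to 1.04 for Gbp7 on the log2 scale, which is 5.81-fold, 4.54-fold and 2.06-fold. Of the 12 probes tested, 8 passed limma's test with Benjamini-Hochberg adjustment over all probes (adjusted p under 0.05), all 8 upward, while 237 of 27577 probes passed in either direction (0.859%) and 194 passed upward (0.703%). These were 6 of 7 IRG probes and 2 of 5 GBP probes. Irgm2, Gbp2 and both probes of Gbp6 did not pass, with adjusted p of 0.0531 to 0.145. The median difference was 1.67 over the 12 probes and -0.01 over all probes tested. With median centring in place of loess, 150 probes passed upward and 3 downward in place of 194 and 43, and the median of all probes moved to 0.17 and that of the members to 1.58.

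The 4 arrays at 75 mg/kg lay above all 5 controls for each of the 12 probes, a pattern seen in 1.85% of all probes. Probe 2 of Iigp1 and probe 2 of Gbp6 were well above background on 0 of 5 control arrays and passed the filter through treated arrays alone, so their difference was in part built into the filter. Among the other 10 probes, 7 passed the test at 75 mg/kg, 10 had all 75 mg/kg arrays above all controls, and the median difference was 1.68. Within slides 1, 2 and 3 the difference at 75 mg/kg had a median of 1.56, 1.33 and 1.98 and was above 0 for 12 of 12 probes on each slide. The slides held 1, 2 and 1 animals at 75 mg/kg against 2, 2 and 1 controls. The 12 probes of a slide come from the same animals and are not separate observations. In bulk tissue, a change in RNA per cell and a change in the share of cells that hold the RNA cannot be told apart.

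**Figure D2:**
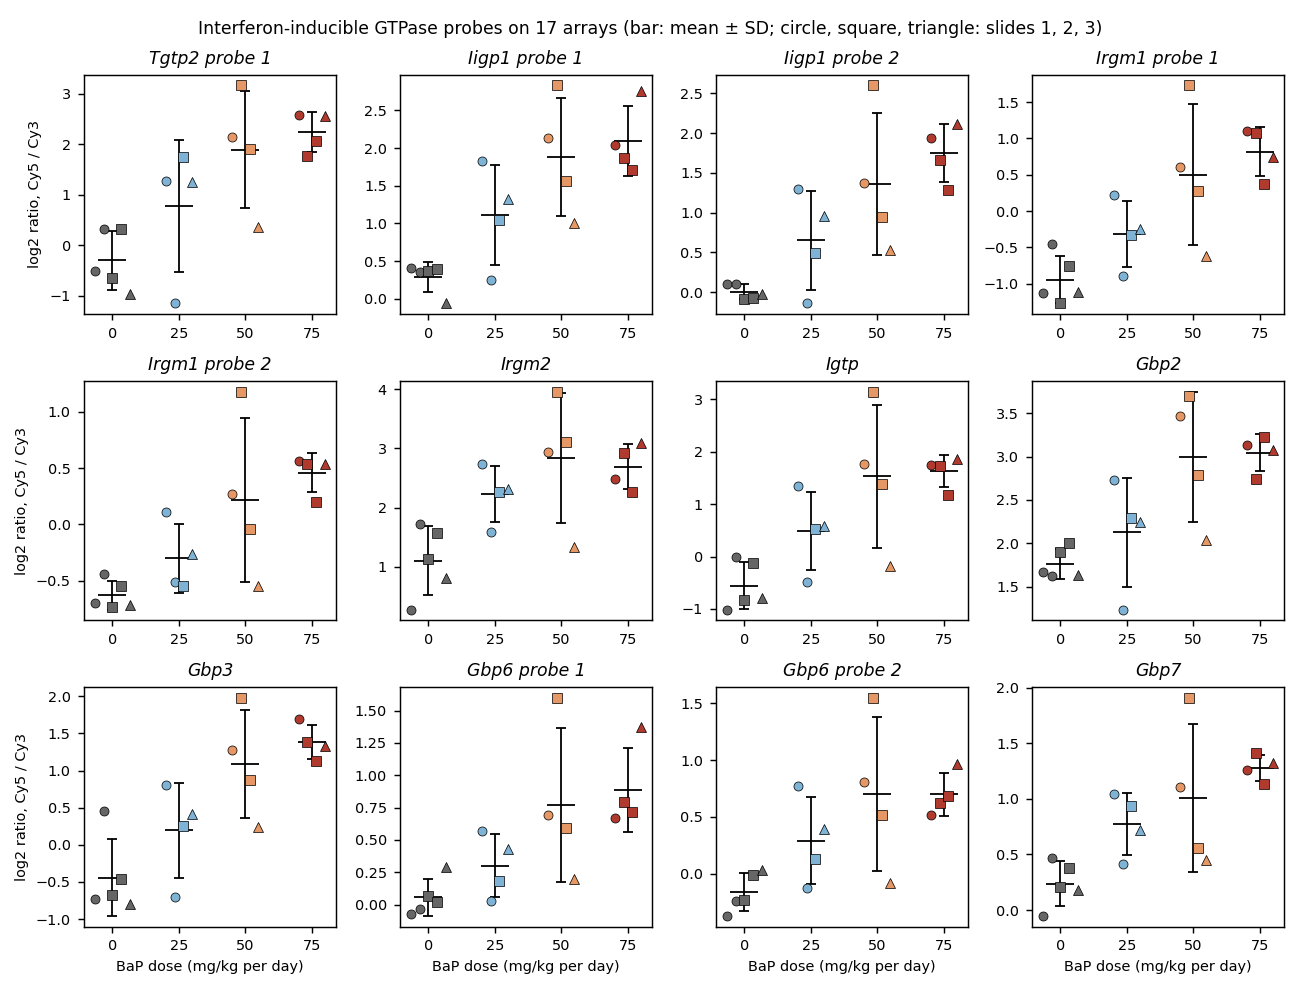
Log2 ratio of Cy5 (forestomach) over Cy3 (reference RNA) for the 12 probes tested, against the daily dose of BaP in mg/kg; each point is 1 animal, its shape gives the slide, and the bars show mean ± SD (n = 5 at dose 0, n = 4 at each other dose). At 75 mg/kg every point lies above every control in all 12 panels, and at 50 mg/kg the points spread most widely in each panel except Tgtp2 probe 1, where the SD was 1.31 at 25 and 1.16 at 50 mg/kg.

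The count of members passing at 75 mg/kg depended on single arrays. It was 3, 3, 4 and 4 without control 1, 3, 4 or 5, and 5 without replicate 9, 12 or 14. It was 1, 2 and 1 without replicate 17, 18 or 20, and 8 without control 2. Without replicate 13 all 12 probes passed. The 12 include Iigp1 probe 2 and Gbp6 probe 2, which passed the filter through treated arrays alone. Over all probes, calls at 75 mg/kg also moved, from 106 to 300 with 1 array left out in turn, against 237 with all arrays.

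Tgtp2 encodes an effector IRG protein first known from T cells, and its probe 1 had the largest difference at 75 mg/kg among the 10 probes above background in controls. Its probe 1 read -0.51, 0.32, -0.64, 0.32 and -0.96 in the controls and 1.27, -1.15, 1.74 and 1.26 at 25 mg/kg. At 50 mg/kg it read 2.14, 3.16, 1.9 and 0.36, and at 75 mg/kg 2.57, 1.77, 2.06 and 2.56. The controls and the 75 mg/kg animals were far apart, whereas replicate 7 read lower than any control and replicate 15 only just above the highest control. The difference at 75 mg/kg was 2.54 ± 0.55 (SE of the fit, adjusted p = 0.0351), and it lost the call in 1 of 10 other settings (adjusted p = 0.0566 without the filter). Those settings leave out no array, and with 1 array left out in turn it lost the call in 9 of 17 fits. Tgtp1 and Tgtp2 are near-identical copies, so probe 1 may read both. The probe assigned to Tgtp1 was well above background on 2 arrays, 1 at 50 and 1 at 75 mg/kg, and its ratios ran from -0.29 to 0.36 on the 17 arrays. Probe 2 of Tgtp2 was well above background on 0 of 17 arrays. No difference is given for those 2 probes.

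Iigp1 encodes an effector that binds the vacuole of the parasite Toxoplasma. Probe 1 read 0.41, 0.36, 0.37, 0.39 and -0.06 in controls and 1.83, 0.25, 1.04 and 1.32 at 25 mg/kg. The animals at 50 mg/kg read 2.13, 2.83, 1.56 and 1 and those at 75 mg/kg 2.04, 1.87, 1.71 and 2.75. Control 5 was low beside the other controls, and only replicate 7 among treated animals fell within the control range. The rise at 75 mg/kg was 1.8 ± 0.33 (adjusted p = 0.0123), or 3.48-fold, and its call was lost in 1 of 17 fits with 1 array left out. Probe 2 was not well above background in controls. In the Cy5 channel alone its mean at 75 mg/kg was 2.66 times that of controls (log2 7.67 against 6.26). Each control was taken at its own reading or, if higher, at the dimmest signal that counted as above background. The figure is a lower bound only in that the controls were dim, and it leaves out the spread between animals. limma's test of the ratios gave an adjusted p of 0.0165, and the call was lost in 3 of 17 fits with 1 array left out.

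Irgm1 encodes a regulator that protects host membranes and is needed for resistance to intracellular bacteria. Its probe 1 read -1.13, -0.46, -1.26, -0.76 and -1.11 in controls, then 0.22, -0.9, -0.33 and -0.25 at 25 mg/kg. At 50 mg/kg the values were 0.61, 1.73, 0.27 and -0.62, and at 75 mg/kg 1.1, 1.07, 0.37 and 0.74. Animals at 75 mg/kg were all above 0 and the controls all below it, with replicates 7 and 15 among the controls. Both probes rose at 75 mg/kg, probe 1 by 1.76 ± 0.34 (adjusted p = 0.0176) and probe 2 by 1.09 ± 0.24 (adjusted p = 0.04). Probe 2 lost the call in 2 of 9 other settings (adjusted p = 0.053 and 0.0609). With 1 array left out, probe 1 lost it in 5 and probe 2 in 10 of 17 fits.

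Irgm2 is a second regulator, associated with the Golgi. It read 0.28, 1.72, 1.14, 1.57 and 0.81 in controls and 2.74, 1.59, 2.26 and 2.32 at 25 mg/kg. It read 2.94, 3.96, 3.1 and 1.34 at 50 mg/kg and 2.48, 2.93, 2.27 and 3.09 at 75 mg/kg. Its controls were the most scattered of the family together with those of Tgtp2 (SD 0.58 for both, n = 5), although none reached the 75 mg/kg range. The difference at 75 mg/kg was 1.59 ± 0.41 and did not pass (adjusted p = 0.0935). It passed in 1 of 10 other settings, with the 75 mg/kg and control arrays fitted alone (adjusted p = 0.033, the range over settings being 0.033 to 0.144).

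Igtp, also known as Irgm3, is the regulator of the endoplasmic reticulum and lipid droplets. It had 10 spots per array, and the SD between spots of 1 array was 0.05 to 0.27. Averaged over spots, it read -1.01, -0.01, -0.82, -0.13 and -0.79 in controls and 1.34, -0.49, 0.52 and 0.59 at 25 mg/kg. The 50 mg/kg animals read 1.77, 3.15, 1.38 and -0.17, and the 75 mg/kg animals 1.75, 1.73, 1.18 and 1.86. The animals therefore differed by far more than the spots did, and replicate 13 was the highest of all. The rise at 75 mg/kg was 2.18 ± 0.48 (adjusted p = 0.0387), and it lost the call in 4 of 10 other settings (adjusted p of 0.051 to 0.0609). With 1 array left out it lost the call in 11 of 17 fits.

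The median difference at 75 mg/kg was 1.04 over the 5 GBP probes and 1.76 over the 7 IRG probes, and the difference between the families was not tested. Gbp3, a large GTPase of the chromosome 3 cluster, read -0.73, 0.45, -0.67, -0.46 and -0.79 in controls and 0.81, -0.7, 0.25 and 0.42 at 25 mg/kg. At 50 mg/kg Gbp3 read 1.27, 1.98, 0.87 and 0.24, and at 75 mg/kg 1.69, 1.39, 1.13 and 1.33. Control 2 stood far above the other controls for Gbp3 but below all 75 mg/kg animals. Gbp3 rose by 1.82 ± 0.33 at 75 mg/kg (adjusted p = 0.0124), and by 2.05 without control 2 (adjusted p = 0.0034). Its call was lost in 1 of 17 fits with 1 array left out.

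Gbp7, which is linked to assembly of the phagocyte oxidase, read -0.05, 0.47, 0.21, 0.38 and 0.18 in controls and 1.04, 0.41, 0.94 and 0.72 at 25 mg/kg. At 50 mg/kg it read 1.11, 1.91, 0.56 and 0.45 and at 75 mg/kg 1.26, 1.41, 1.13 and 1.32. The 75 mg/kg animals lay close together (SD 0.12, n = 4), and Gbp7 rose by 1.04 ± 0.23 (adjusted p = 0.0371). That call was lost in 6 of 10 other settings (adjusted p of 0.0509 to 0.0646) and in 10 of 17 fits with 1 array left out. Gbp2, which coats the Toxoplasma vacuole, read 1.67, 1.62, 1.9, 2 and 1.64 in controls and 2.73, 1.24, 2.29 and 2.25 at 25 mg/kg. It read 3.47, 3.7, 2.79 and 2.04 at 50 mg/kg and 3.13, 2.74, 3.23 and 3.08 at 75 mg/kg. Every animal at 50 and at 75 mg/kg was above every control for Gbp2, yet the difference at 75 mg/kg, 1.27 ± 0.3, just missed the threshold (adjusted p = 0.0531). It passed in 4 of 10 other settings, among them slide as a block (adjusted p = 0.0394) and median centring (adjusted p = 0.0429), the range over settings being 0.00308 to 0.0812.

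Gbp6, encoded in the chromosome 5 cluster, did not pass with either probe. Probe 1 ranged from -0.07 to 0.29 in controls and from 0.67 to 1.37 at 75 mg/kg, a difference of 0.83 ± 0.22 (adjusted p = 0.102). Probe 2 was not well above background in controls. In the Cy5 channel alone its mean at 75 mg/kg was 1.65 times that of controls (log2 7.02 against 6.29). Controls were taken as for the dim probe of Iigp1. The figure is a lower bound only in that the controls were dim, and it leaves out the spread between animals. limma's test of the ratios gave probe 2 an adjusted p of 0.145. With Agilent's processed signals in place of the corrected medians probe 2 passed (adjusted p = 0.0396, the range over 9 settings being 0.0104 to 0.247). The groups did not overlap for either probe.

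**Figure D3:**
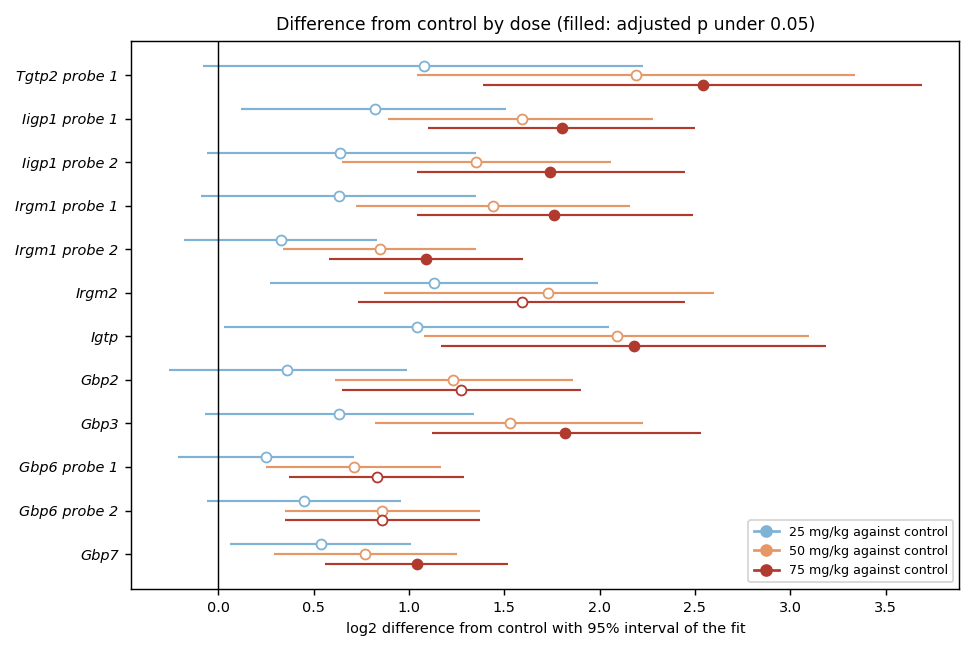
Log2 difference from control at 25 (blue), 50 (orange) and 75 mg/kg (red) for the 12 probes, with the 95% interval of the fit; filled points had an adjusted p under 0.05. For each probe the 25 mg/kg point is the smallest, the 50 and 75 mg/kg points lie close together, and 8 of the 75 mg/kg points are filled. The points of Iigp1 probe 2 and Gbp6 probe 2 are fitted values of probes too dim in controls to give a size, so they have no rank among the others.

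At 25 and 50 mg/kg no member passed. At 25 mg/kg the 12 differences ran from 0.25 for Gbp6 probe 1 to 1.13 for Irgm2 with a median of 0.63, and at 50 mg/kg from 0.71 to 2.19 with a median of 1.4. limma called 0 of 12 members at 25 mg/kg, where 3 of 27577 probes passed (0.0109%), and 0 of 12 at 50 mg/kg, where 9 passed (0.0326%). At an unadjusted p under 0.05 the counts were 4 and 12 of 12 members, against 881 and 1781 of 27577 probes. Among the 10 probes above background in controls they were 4 and 10. All 12 differences were above 0 at each dose, against 53.1% of all probes at 25 mg/kg, 48.5% at 50 mg/kg and 47.9% at 75 mg/kg. The dose comparisons share the same 5 controls.

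The animals at 50 mg/kg were separate from the controls for 4 of 12 probes, a pattern seen in 1.13% of all probes. These were the probes of Tgtp2 (probe 1), Iigp1 (both) and Gbp2. Iigp1 probe 2 passed the filter through treated arrays alone, and 3 of the 10 probes above background in controls were separate. At 25 mg/kg this held for 0 of 12 (0.577% of all probes). Without replicate 15, 5 members passed at 50 mg/kg: Iigp1 probe 1 (1.88, adjusted p = 0.0363), Irgm1 probe 1 (1.81, adjusted p = 0.0353), Irgm2 (2.23, adjusted p = 0.0203), Igtp (2.66, adjusted p = 0.0203) and Gbp2 (1.55, adjusted p = 0.036). Without control 2, Gbp3 alone passed. Over all probes, calls at 50 mg/kg ran from 2 to 24 with 1 array left out in turn, against 9 with all arrays. Member calls in these fits ran from 0 to 5, so the fit without replicate 15 gave the highest member count.

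Fitted as a straight line on dose, 10 of 12 probes rose, against 301 of 27577 probes that passed in either direction (1.09%) and 235 upward (0.852%). The slope per 25 mg/kg step was 0.88 ± 0.17 for Tgtp2 probe 1 (adjusted p = 0.00918), 0.77 ± 0.15 for Igtp (adjusted p = 0.0122) and 0.64 ± 0.1 for Gbp3 (adjusted p = 0.00251). Irgm2 (slope 0.56, adjusted p = 0.0562) and the dim Gbp6 probe 2 (adjusted p = 0.0594) did not pass. Of the 10 probes that were above background in controls, 9 passed.

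The order of the group means was control, 25, 50, 75 mg/kg for each probe except Irgm2 and Gbp6 probe 2, whose 75 mg/kg mean did not exceed that at 50 mg/kg, although it did with median centring. The test did not separate 75 from 50 mg/kg, and 50 was not tested against 25 mg/kg. For 75 against 50 mg/kg the differences ran from -0.14 for Irgm2 to 0.39 for Iigp1 probe 2, and limma called 0 of 12 members and 0 of 27577 probes (0%), with 0 of 12 and 755 of all probes at an unadjusted p under 0.05. The 95% interval of that difference was -0.86 to 1.57 for Tgtp2 probe 1, -0.97 to 1.16 for Igtp and -0.45 to 1.04 for Gbp3. Against 25 mg/kg, the 75 mg/kg animals differed by 0.41 to 1.46 with a median of 0.95, and limma called 0 of 12 members (13 of 27577 probes, 0.0471%), with 10 of 12 members and 1271 of all probes at an unadjusted p under 0.05. Animals at 75 mg/kg were all above those at 25 mg/kg for 7 of 12 probes, against 1.58% of all probes. Of the 10 probes above background in controls, this held for 7, and 9 had an unadjusted p under 0.05.

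The members ordered the animals of a dose group in much the same way. Replicate 13, at 50 mg/kg, was the highest of all 17 arrays for 12 of 12 probes, with a mean of 2.41 above the control mean. Replicate 15, in the same dose group, was the lowest of its group for 12 of 12 probes, 0.36 above the control mean, and did not exceed the highest control for 8. At 25 mg/kg, replicate 6 was above every control for 12 of 12 probes and replicate 7 above the highest control for 0 of 12. The 75 mg/kg animals were more alike, with means of 1.61, 1.51, 1.29 and 1.77 above the controls.

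The spread between animals was wider for the members than for most probes at the lower doses. The median SD over the 12 probes was 0.2 in controls, 0.55 at 25, 0.77 at 50 and 0.31 at 75 mg/kg, against 0.2, 0.17, 0.18 and 0.18 over all probes tested. This was not tested. Over the 17 arrays each probe's correlation with the mean profile of the 9 genes was 0.907 to 0.994, and 0.789 to 0.988 after removal of the group means. Each probe is itself part of, or shares arrays with, that profile.

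Outside the family and the gene lists examined, the 5 of 13730 genes most like the mean profile over the 17 arrays (Pearson's r) were Zbp1, a sensor of Z-form nucleic acid (0.948), Tap1, the peptide transporter of antigen presentation (0.941), H2-T23, a nonclassical class I molecule (0.934), Cxcl10, a chemokine for T cells (0.927), and Psmb9, an immunoproteasome subunit (0.924). They were picked for this likeness, so their differences at 75 mg/kg are given as values: 1.1, 1.32, 1.5, 2.14 and 1.83. All arrays and controls are shared with the members. In replicate 13 Zbp1 read 0.02 against -1.99 to -1.35 in the controls, and in replicate 15 it read -1.3.

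**Figure D4:**
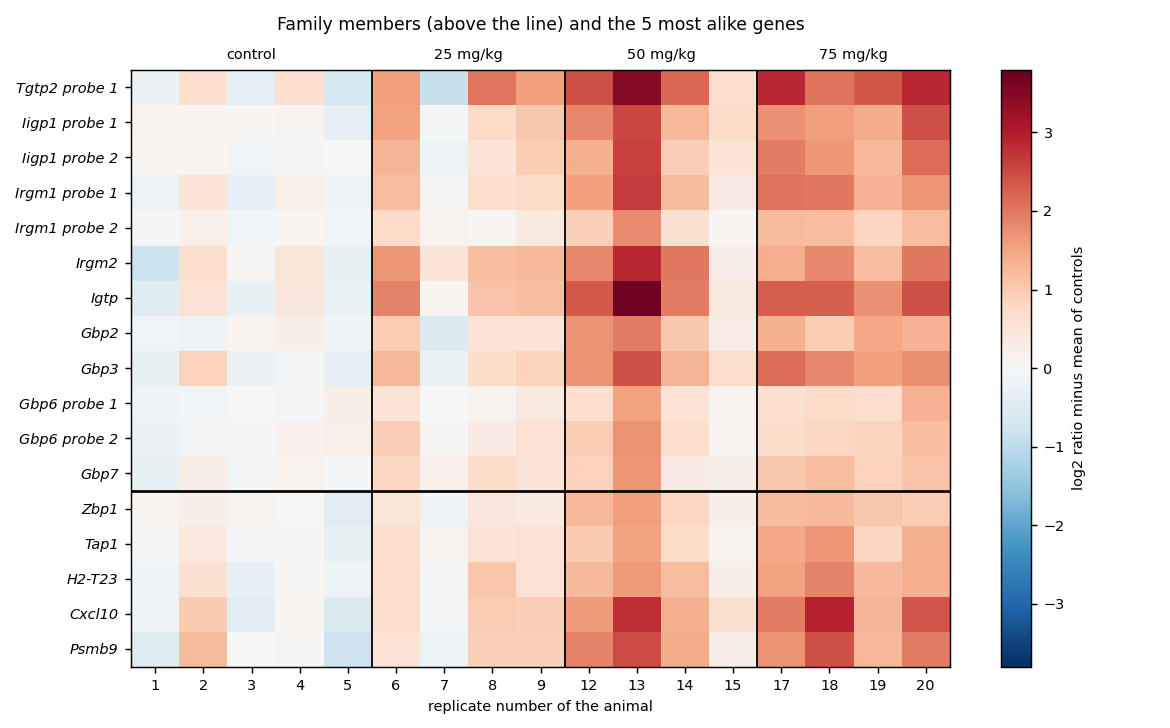
Log2 ratio minus the mean of the 5 controls for the 12 member probes (above the line) and the 5 genes most like them (below), in columns by animal and dose; red is higher and blue lower than the control mean. The column of replicate 13 is the darkest for the members, and those of replicates 7 and 15 are close to the control columns.

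Among other IRG and GBP genes, 3 rose. Of 17 relatives outside the members, 11 were tested, and Gbp5 (1.49 ± 0.3, adjusted p = 0.0243), Gm4951 (1.59 ± 0.34, adjusted p = 0.0353) and Gbp4 (1.38 ± 0.3, adjusted p = 0.0371) rose at 75 mg/kg. The median difference of the 11 was 0.75. Ifi47, another IRG gene, differed by 1.79 ± 0.43 (adjusted p = 0.0665). The count of 3 was 6 without control 2, 5 without replicate 13 or 15, 1 without control 5 and 0 without control 1, 3 or 4 or replicate 17, 18 or 20.

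Upstream in the pathway, the ligands and receptors showed no called change, and some transcription factors rose. Of 12 interferons and inducing cytokines, 2 had no probe matched here and 7 were too dim to test. Ifng and Ifnb1, the genes of interferons gamma and beta, were below that mark on all 17 arrays. The 3 tested, Ifnl3, Il18 and Il27, differed at 75 mg/kg by -0.17 to -0.1. Of 9 receptor chains and Janus kinases, limma called 0, with a median difference of -0.04 and a range from -0.14 for Jak2 to 0.28 for Ifngr2.

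Of 10 interferon transcription factors tested, 5 rose at 75 mg/kg, with a median of 0.7. Nlrc5, the transactivator of class I antigen presentation genes, rose by 1.93 ± 0.24 (adjusted p = 0.00104) and passed at 50 mg/kg too (1.42, adjusted p = 0.0486), although its second probe differed by 0.43 at 75 mg/kg (adjusted p = 0.132). Batf2 rose by 1.12 ± 0.23 (adjusted p = 0.0225). Irf1, an early interferon gamma target, differed by 0.86 ± 0.27 (adjusted p = 0.227). The count of 5 was 3 without control 1 or 4 or replicate 17 or 20.

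The feedback inhibitors of the pathway had a median difference of 0.19, and limma called 0 of 7. Usp18, which removes ISG15, differed by 1.44 ± 0.36 (adjusted p = 0.0773) and Socs1, an inhibitor of Janus kinases, by 0.68 ± 0.17 (adjusted p = 0.0756). Among genes with which the GTPases work, the 11 autophagy conjugation genes that place them on membranes had a median of -0.04, the 5 inflammasome genes tested a median of 0.08, and limma called 0 in either list. Of 11 GTPases of other families that interferon does not induce, Rab proteins and atlastins among them, 0 passed, with a median of -0.1.

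**Figure D5:**
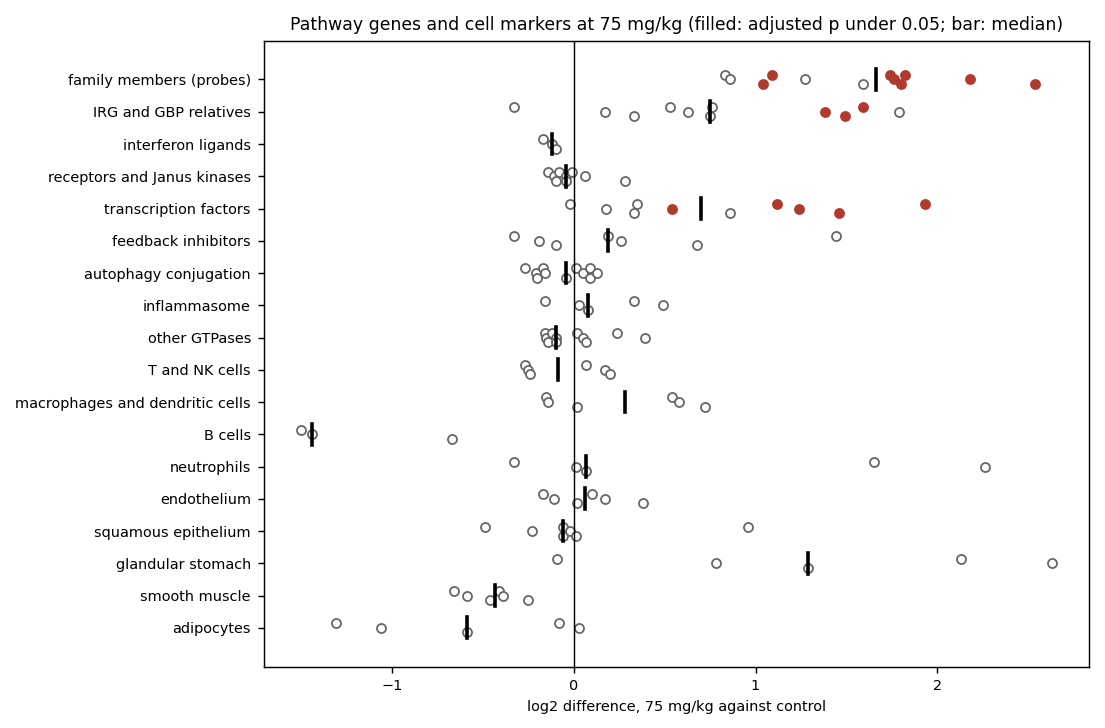
Log2 difference between 75 mg/kg and control for the member probes, the pathway lists and the cell marker lists; each point is a probe (members) or a gene, filled points had an adjusted p under 0.05 and the vertical tick is the median. Filled points occur among the members, their IRG and GBP relatives and the transcription factors.

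Markers of immune cells did not pass at 75 mg/kg in any list. Of the T and NK cell markers 6 of 10 were tested, with a median difference of -0.08 (0.29 without control 2), and Gzmb, Ncr1 and Klrk1 were well above background on 0 of 17 arrays. Their mean log2 ratio ranged from -0.54 to 1.18 in controls, -0.32 to 0.1 at 25, -0.49 to 0.37 at 50 and -0.15 to 0.27 at 75 mg/kg. For macrophages and dendritic cells, 6 of 8 markers were tested, with a median of 0.28 (0.51 without control 2) and Cd163 well above background on 0 of 17 arrays. Their mean ratio ranged from 0.21 to 1.49 in controls, 0.34 to 0.74 at 25, 0.76 to 0.93 at 50 and 0.69 to 1.08 at 75 mg/kg. Control 2 held the highest value of both lists.

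Of the B cell markers 3 of 5 were tested, with a median difference of -1.44 at 75 mg/kg that was -0.35 without control 2, and their mean ratio was -3.76 to 1.33 in controls, -3.58 to -3.02 at 25, -3.7 to -1.17 at 50 and -3.89 to -3.09 at 75 mg/kg. Replicate 13, where the members were highest, had the highest B cell value of all treated animals. Of the neutrophil markers 5 of 6 were tested, with a median of 0.07 (0.25 without control 2), and their mean ratio was 0.61 to 2.98 in controls, 1.03 to 1.3 at 25, 1.16 to 2.37 at 50 and 1.17 to 2.78 at 75 mg/kg. Without control 2, limma called 2 of 6 macrophage and dendritic cell markers higher at 75 mg/kg, Adgre1 (0.78, adjusted p = 0.00797) and Itgax (0.97, adjusted p = 0.00286). It also called 1 of 5 neutrophil markers higher, S100a9 (2.88, adjusted p = 0.00699). With all arrays none of these 3 passed, and Adgre1, Itgax and S100a9 differed by 0.54, 0.58 and 2.26. The other markers of the 2 lists are given with all arrays only. Csf1r, Itgam, Mrc1 and Lyz2 differed by -0.15, -0.14, 0.02 and 0.72. Mpo, Csf3r, Cxcr2 and S100a8 differed by -0.33, 0.01, 0.07 and 1.65. The members' own count without control 2 was 8 of 12, as with it. The part of immune cell types in the members' differences was not tested, and leaving out a control does not measure it.

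Tissue markers were also followed. Median differences at 75 mg/kg were -0.06 for squamous epithelium, 0.06 for endothelium, 1.29 for glandular stomach, -0.44 for smooth muscle and -0.59 for adipocytes (-0.9 without control 2), and limma called 0 genes of any of these lists. Replicate 7, whose members did not exceed the controls, was the animal with the highest glandular markers, and replicates 17 and 20, whose members were high, followed it with 3.54 and 3.58. The part of glandular tissue in the members' values was not tested.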

How the data were processed

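Per the labels, forestomach RNA of 17 animals was hybridised in Cy5 against reference RNA in Cy3, with 200 ng of RNA per array, and no array had its dyes swapped, so a dye effect on a probe is the same in each group. The design text calls the animals of a group biological replicates. Scanner tables deposited by the authors gave intensity per spot. Per the file headers they came from Feature Extraction 10.7.3.1, and the median signals and median backgrounds were used. A series table deposited by the authors held log2 values, whose scale no label states. Compared with the scanner intensities, it followed loess-normalized Cy5 over Cy3 in log2 units, uncorrected for background (r of 0.9991 to 0.9998 over probes), and it served as an alternative.

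Background was corrected with normexp (offset 50), within-array loess gave control spots weight 0, and these spots and outlier spots were then dropped. Spots of a probe were averaged, and a probe was tested if 4 or more arrays had it well above background in Cy5. The median Cy5 spot read 75.5 to 96 over a background of 64 to 74.5, and the number of arrays limits the precision. limma 3.58.1 in R 4.3.3 fitted all 17 arrays with 4 group means, or a line on dose (two-sided, Benjamini-Hochberg over 27577 probes, threshold 0.05), and was tested on simulated data. A ± gives the fit's standard error, or the SD where marked. Slides, 3 in number, each held all 4 groups.

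Probes were named through their RefSeq transcripts in the GRCm38.p6 gene table: 26413 had 1 symbol, 0 had several and 29268 had none. Every member probe is reported, and the values of some list genes are not reported here. From each list the genes passing at 75 mg/kg were named, at most 6, with the 5 genes most like the members, and lists used the brightest probe of a gene. Ifi47, Irf1, Usp18, Socs1 and others that did not pass were chosen after their values were seen. The members and lists were chosen with earlier results of these data known. The alternatives were the background correction, the normalization, Agilent's processed intensity, the authors' table, the Cy5 channel alone, the filter, the slide as a block, the groups fitted, 1 probe per gene and each array left out.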

Additional observations from a re-analysis of the deposited data

Results flagged for a closer look

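In 56 groups of 4 or 5 arrays of 1 member probe, 4 held an array far from the others by Dixon's test, and chance gives about 1 in 20 groups. Replicate 7 at 25 mg/kg had the lowest value of Tgtp2 probe 1, -1.15, with the next animal at 1.26. Control 5 had the lowest value of Iigp1 probe 1 among the controls, -0.06, with the next at 0.36. Replicate 19 at 75 mg/kg was the lowest of its group for Irgm1 probe 2, 0.2, with the next at 0.54. Control 2 was the highest control for Gbp3, 0.45, with the next at -0.46, and it was also the control with the highest immune cell markers. None of these was explained here.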

How the results depend on the processing

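Against controls, no member difference changed sign under any setting at any dose, nor did any slope on dose. Of 117 values at 75 mg/kg under settings other than leaving out an array, 13 lost the call, 8 gained it and 96 kept their side of the threshold. The 8 member calls at 75 mg/kg became 4 without the filter, where more probes were tested, and 6 to 12 under the others. With Agilent's processed signals the log2 difference at 75 mg/kg went from 1.74 to 5.05 for Iigp1 probe 2, 0.86 to 3.07 for Gbp6 probe 2, 0.83 to 1.55 for Gbp6 probe 1, 1.04 to 1.98 for Gbp7 and 1.09 to 1.92 for Irgm1 probe 2, while Tgtp2 probe 1, Iigp1 probe 1, Irgm1 probe 1, Irgm2, Igtp, Gbp2 and Gbp3 moved by less than 1.5 times. Among the genes most like the members, Zbp1 went to 2.25, Tap1 to 2.88 and Cxcl10 to 4.76 with these signals. Of all probes, with 3 called at 25 mg/kg, 1 was called without background correction, with Agilent's processed signals, with Cy5 alone, without the filter or with slide as a block, and 0 with median centring. At 50 mg/kg 9 became 1 with median centring, 3 with Cy5 alone, 2 without the filter and 27 with slide as a block. At 75 mg/kg 237 became 153 with median centring and 474 with slide as a block, and for the line 301 became 182 and 616. For 75 against 25 mg/kg 13 became 0 with median centring, processed signals or the compared groups alone, and 35 with slide as a block. For 75 against 50 mg/kg 0 became 1 with Cy5 alone. The cause was not tested.

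With 1 array left out in turn, calls over all probes ran from 0 to 2 at 25, 2 to 24 at 50 and 106 to 300 at 75 mg/kg, from 0 to 41 for 75 against 25, 0 to 3 for 75 against 50 and 189 to 429 for the line. The lowest count at 75 mg/kg, 106, came without replicate 18 and the highest, 300, without control 2. Member calls ran from 0 to 5 at 50 mg/kg, 1 to 12 at 75 mg/kg and 8 to 12 for the line. The log2 difference of 75 against 50 mg/kg, called for no member, changed sign for Gbp6 probe 2, from a value that rounds to 0 to 0.03 without background correction, 0.04 with median centring, 0.26 with processed signals and 0.04 in the authors' table, and for Irgm2, to 0.05 with median centring. With 1 array left out it ran from -0.16 to 0.78 for Tgtp2 probe 1, -0.08 to 0.53 for Iigp1 probe 1, -0.05 to 0.73 for Irgm1 probe 1, -0.01 to 0.56 for Irgm1 probe 2, -0.64 to 0.23 for Irgm2, -0.47 to 0.64 for Igtp, -0.28 to 0.27 for Gbp2, -0.07 to 0.4 for Gbp6 probe 1 and -0.26 to 0.28 for Gbp6 probe 2. Alternatives for the counts of the gene lists were chosen after seeing the data, and settings other than leaving out an array gave 1 to 5 called relatives, 3 to 5 transcription factors and 0 to 2 feedback inhibitors at 75 mg/kg. Signal over background limits Tgtp1, Tgtp2 probe 2, Iigp1 probe 2 and Gbp6 probe 2. The first and second were not tested. The others give only a lower bound in Cy5 against controls, which leaves out the spread between animals, whatever their fitted values.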
